A study of Mus musculus with 6 samples.

Results

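Hlf, Mecom, Meis1, Mllt3 and Mycn are 5 genes listed for their part in blood stem and progenitor cells, and they are also used by endothelium and mesenchyme. They were taken by name, as 5 of 31053 gene identifiers, and all 5 were among the 14912 genes kept by the filter on low counts. The genes were picked with the difference between floating and attached cells already known, so they count as chosen by their levels in the 6 libraries, where the 3 suspension libraries lay below the 3 adherent ones for each of them. That difference is therefore described and not tested. The course over the days of culture was tested. Since the genes were listed with earlier results of these data known, the day tests may not be free of the choice either.

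The cells came from the lungs of wild-type C57BL6 mouse fetuses at embryonic day 17. They were dissociated, frozen in DMSO, thawed onto a thin coat of diluted Matrigel (a basement membrane extract) and kept, in every group, in a blood progenitor medium with Flt3 ligand, VEGF, FGF, SCF (the Kit ligand), IL6 and mouse thrombopoietin, with a wash on day 3. Floating cells (suspension) and attached cells (adherent, lifted with accutase, then sorted as live and positive for VE-cadherin, a junction protein of endothelium) were each made into 1 droplet library of transcript 3' ends on days 4, 5 and 6, so there were 3 libraries per fraction and 6 in all. How many fetuses were pooled is not given in the sources used here, nor whether each day had its own culture, so a p-value reflects the spread among these libraries and no more. Gene counts per library ran from 36451255 to 57784974 reads, and 3 reads in a library, the limit that a count of 0 allows, corresponded to between 0.0594 and 0.0756 CPM, the read count scaled to library size with TMM factors. Each value is a sum over a whole library, so fewer cells of a type and less RNA per cell cannot be told apart. Intervals and limits from reads cover counting error only. They treat each read as independent, though the counts do not tell copies of 1 molecule apart. They may thus be too narrow, and an order of libraries read from them is tentative.

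As background, long-lived blood stem cells keep a small set of transcription regulators high and lose them as they differentiate. Hlf is a PAR bZIP factor that marks blood stem cells and, in other tissues, follows the circadian clock. Mecom (Evi1) is a zinc finger factor needed for stem cell maintenance and is also made in endothelium and epithelium. Meis1 is a TALE homeodomain protein that binds DNA beside Pbx and Hox proteins and is common in mesenchyme. Mllt3 (AF9) reads acylated histones and ties the Dot1l methyltransferase and elongation factors to chromatin. Mycn is a Myc family factor that pairs with Max and serves fetal progenitors of many tissues, the lung epithelium among them.

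The start regions of Hlf and Mecom, which each had a day slope past the test, and of Mycn, whose values were lower on each later day without passing, are shown because the deposited counts are per gene and say nothing on which start was used. They come from RefSeq on GRCm38.p6, the assembly of mm10, which held 7 windows for the 5 genes, with alternative starts for Mecom and Mllt3. Each run holds the 250 bases before a start, read 5′ to 3′ on the minus strand of the gene, and capitals mark matches to the motifs searched. The windows are chr11:90390918-90391167 for Hlf, chr3:30509760-30510009 for the upstream start of Mecom (the one that adds the Mds1 part), chr3:30013205-30013454 for its downstream start, and chr12:12941837-12942086 for Mycn.
Hlf: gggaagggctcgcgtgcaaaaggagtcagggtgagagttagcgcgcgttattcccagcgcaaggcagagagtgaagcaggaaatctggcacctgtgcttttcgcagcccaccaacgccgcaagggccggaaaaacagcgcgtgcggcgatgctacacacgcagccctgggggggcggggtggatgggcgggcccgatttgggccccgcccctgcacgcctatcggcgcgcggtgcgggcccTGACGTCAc
Mecom upstream start: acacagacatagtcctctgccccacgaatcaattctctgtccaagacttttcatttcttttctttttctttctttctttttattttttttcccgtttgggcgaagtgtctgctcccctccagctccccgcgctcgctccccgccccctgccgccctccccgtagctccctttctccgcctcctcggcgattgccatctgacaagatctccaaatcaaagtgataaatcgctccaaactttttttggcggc
Mecom downstream start: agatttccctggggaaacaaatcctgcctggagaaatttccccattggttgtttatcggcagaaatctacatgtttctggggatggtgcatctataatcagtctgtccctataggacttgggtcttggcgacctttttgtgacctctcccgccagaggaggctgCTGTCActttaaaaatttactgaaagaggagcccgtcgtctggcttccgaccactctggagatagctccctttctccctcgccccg
Mycn: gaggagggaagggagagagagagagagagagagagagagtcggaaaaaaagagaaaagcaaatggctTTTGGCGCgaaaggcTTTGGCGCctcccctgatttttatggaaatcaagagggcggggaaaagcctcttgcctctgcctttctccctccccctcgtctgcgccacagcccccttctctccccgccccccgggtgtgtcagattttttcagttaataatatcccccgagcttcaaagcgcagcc

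The motifs were searched on both strands, chosen with the sequences in view. TTTGGCGC and TTTCCCGC are forms of the E2F site, and TGACGTCA is the full cyclic AMP response element that Creb and Atf factors bind. TTACGTAA is the PAR bZIP site that Hlf itself binds, and CACGTG is the E-box of Myc proteins. TGACAG is the core bound by Meis proteins. The core of Runx sites is TGTGGT. Factors of the Gata family bind AGATAA, and those of the Ets family bind CCGGAAG. The Mycn window held TTTGGCGC at 2 places, beginning 183 and 168 bases before the start, a motif present in 0.417% of 32851 windows of this length. In the Hlf window TGACGTCA began 9 bases before the start, where 1.55% of windows hold it. The downstream start of Mecom had 1 TGACAG on the opposite strand, a motif in 15.9% of windows, and its upstream start had no match. Of the windows not shown, that of Meis1 held the Runx core (14% of windows) and the Ets site (6.91%), and the second of Mllt3 held the Meis core. No match overlapped another. The E-box, the PAR bZIP site, the Gata site and TTTCCCGC (in 6.02%, 0.113%, 9.99% and 0.895% of windows) were in none of the 7. A match is a run of letters and not a shown binding site.

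All 5 genes were higher in the adherent libraries, and they differed in how the gap moved with the days. In 34.4% of all 14912 genes tested the suspension libraries lay wholly below the adherent ones, so that order alone is common in these data, and for the 5 genes it is part of how they were chosen. Meis1 and Mllt3 had slopes near 0 in both fractions. Hlf began nearly level on day 4 and rose in adherent cells, Mecom fell away in suspension, and Mycn had lower values on each later day in both without passing the test.

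**Figure D1:**
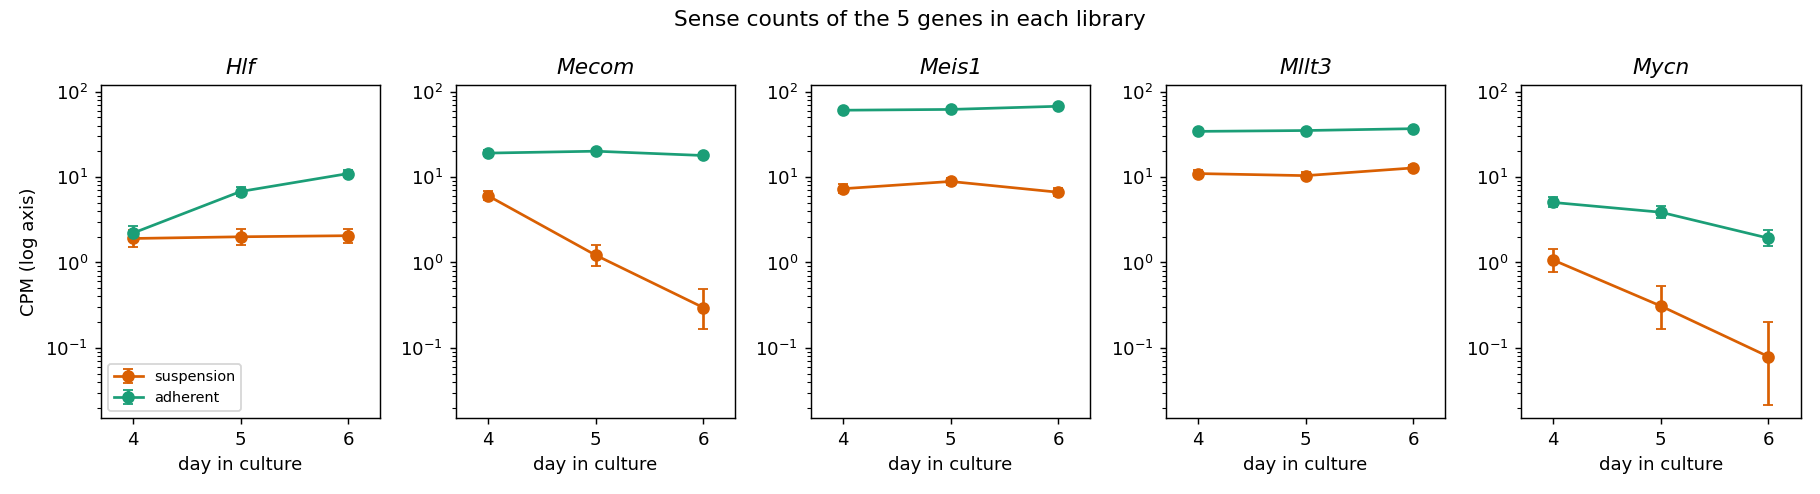
Level of each gene in CPM (log axis) against the day in culture, for the 3 suspension and 3 adherent libraries. Points are single libraries and bars are 95% counting intervals. Hlf in adherent cells goes from 2.21 to 11 CPM and Mecom in suspension from 6.05 to 0.297 CPM, while Meis1 and Mllt3 run flat.

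Hlf (ENSMUSG00000003949, mm10 chromosome 11, 90336536 to 90390895, minus strand) was at 2.21, 6.78 and 11 CPM in adherent cells on days 4, 5 and 6. In suspension it was at 1.91, 2 and 2.06 CPM. The adherent libraries of days 5 and 6 thus stood above the rest, and the adherent library of day 4 had a counting interval (1.79 to 2.7 CPM) that overlapped that of suspension day 6, its neighbour in the order of levels. The 3 suspension libraries could not be ordered, since their intervals overlapped as well. Means were 6.67 ± 4.4 CPM in adherent and 1.99 ± 0.0737 CPM in suspension cells (SD, n = 3), a log2 ratio of suspension over adherent of -1.74 ± 0.55 (SE). It was -1.17 without the adherent library of day 6. The adherent excess was 1.16-fold on day 4, 3.38-fold on day 5 and 5.35-fold on day 6.

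The rise of Hlf in adherent cells passed the test of the day slope, at 1.14 ± 0.19 log2 per day, or 2.21-fold a day (edgeR, adjusted p = 0.0244 over all genes by Benjamini-Hochberg). Of the 5 genes 1 was rising in adherent cells, against 7.75% of all genes. The slope was 0.05 ± 0.18 in suspension (adjusted p = 0.922), and the difference between the slopes, -1.09 ± 0.26, did not pass (adjusted p = 0.122 by edgeR). Without any 1 of the 3 suspension libraries the adherent slope stayed at 1.11 but its adjusted p was between 0.0646 and 0.0672. Without the adherent library of day 4 the slope was 0.7 (adjusted p = 0.23), without that of day 6 it was 1.61 (adjusted p = 0.0751), and without that of day 5 it was 1.16 (adjusted p = 0.0065). A fit without 1 library has fewer residual degrees of freedom, so a call can be lost with the slope unchanged. Without adherent day 5 the adherent line runs through days 4 and 6 alone, with no adherent spread about it, so the kept call adds no support for the rise.

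Mecom (ENSMUSG00000027684, mm10 chromosome 3, 29951296 to 30548008, minus strand) was level in adherent cells at 19.1, 20.1 and 17.9 CPM on days 4, 5 and 6. In suspension it was at 6.05, 1.22 and 0.297 CPM, from 250, 51 and 15 reads. The adherent libraries stood at the top with overlapping intervals, and below them the suspension libraries followed in the order of the days with intervals that did not overlap. Day 4 was 20.4 times day 6 in suspension. The means, 19 ± 1.11 CPM in adherent and 2.52 ± 3.09 CPM in suspension cells (SD, n = 3), therefore describe suspension poorly. Their log2 ratio was -2.93 ± 0.93 (SE), and -4.71 without the suspension library of day 4. By day the adherent excess was 3.16-fold, 16.5-fold and 60.2-fold.

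The fall of Mecom in suspension was 2.2 log2 per day in size, a slope of -2.2 ± 0.13 or 4.6-fold a day (adjusted p = 0.0204, edgeR quasi-likelihood test). Among the 5 genes 1 was falling in suspension, where 0.402% of all genes were. In adherent cells the slope was -0.05 ± 0.1 (adjusted p = 0.776). The slopes differed by -2.15 ± 0.16 log2 per day (adjusted p = 0.0485 by edgeR), and 1 of the 5 genes had a suspension slope called below its adherent slope, against 0.463% of all genes. The suspension slope kept its size but not its call without the suspension library of day 4 (-2.06, adjusted p = 0.181) or of day 6 (-2.31, adjusted p = 0.676). The slope difference lost its call without suspension day 4, 5 or 6, with adjusted p of 0.216, 0.0789 and 0.7, and was at 0.0532 with globin and mitochondrial genes left out.

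Meis1 (ENSMUSG00000020160, mm10 chromosome 11, 18879817 to 19018985, minus strand) was at 60.7, 62 and 67.5 CPM in adherent cells on days 4, 5 and 6. In suspension it was at 7.31, 8.89 and 6.65 CPM. The fractions were far apart and the days close together. Counting intervals overlapped between adherent days 4 and 5, and between suspension days 4 and 5 and days 4 and 6. Means were 63.4 ± 3.61 and 7.62 ± 1.15 CPM (SD, n = 3), the log2 ratio was -3.06 ± 0.14 (SE), and the adherent excess by day was 8.29-fold, 6.97-fold and 10.1-fold. Slopes were 0.08 ± 0.1 log2 per day in adherent cells and -0.07 ± 0.11 in suspension (adjusted p = 0.651 and 0.813 by edgeR).

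Mllt3 (ENSMUSG00000028496, mm10 chromosome 4, 87769925 to 88033364, minus strand) was at 34.3, 35.1 and 36.9 CPM in adherent cells and at 11, 10.4 and 12.8 CPM in suspension. Neighbouring libraries of a fraction had overlapping counting intervals throughout. With means of 35.4 ± 1.32 and 11.4 ± 1.21 CPM (SD, n = 3), its log2 ratio was -1.63 ± 0.11 (SE), and the adherent excess was 3.1-fold, 3.37-fold and 2.89-fold by day. Its slopes were 0.05 ± 0.08 log2 per day in adherent cells and 0.11 ± 0.08 in suspension (adjusted p = 0.693 and 0.567 by edgeR).

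Mycn (ENSMUSG00000037169, mm10 chromosome 12, 12936093 to 12941914, minus strand) was at 5.05, 3.88 and 1.93 CPM in adherent cells on days 4, 5 and 6. In suspension it was at 1.07, 0.31 and 0.0792 CPM, which rest on 44, 13 and 4 reads. Both series ran downward, and the fractions did not overlap. Intervals overlapped between adherent days 4 and 5 and between suspension days 5 and 6. Day 4 was 2.61 times day 6 in adherent and 13.5 times in suspension cells. Means were 3.62 ± 1.58 and 0.485 ± 0.516 CPM (SD, n = 3) and the log2 ratio was -2.91 ± 0.86 (SE). That ratio was -4.28 without the suspension library of day 4.

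None of these slopes of Mycn passed by edgeR. They were -0.69 ± 0.2 log2 per day in adherent cells (adjusted p = 0.0829), -1.83 ± 0.27 in suspension (adjusted p = 0.0668) and -1.13 ± 0.28 common to both (adjusted p = 0.149). In the common trend 0 of the 5 genes passed by edgeR, with 0.0134% of all genes called. Mycn, 1 of the 5, had an unadjusted p under 0.05 there (0.00759, edgeR), as did 3036 of all 14912 genes. DESeq2 called Mycn there at -1.19 (adjusted p = 0.00666) and in suspension at -1.86 (adjusted p = 0.00247). It called 1478 genes in the common trend and 802 in the suspension slope. The suspension slope passed without any 1 of the adherent libraries (adjusted p from 0.0323 to 0.0428, edgeR) and did not pass without suspension day 4, 5 or 6 (adjusted p = 0.632, 0.0971 and 0.942, edgeR).

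**Figure D2:**
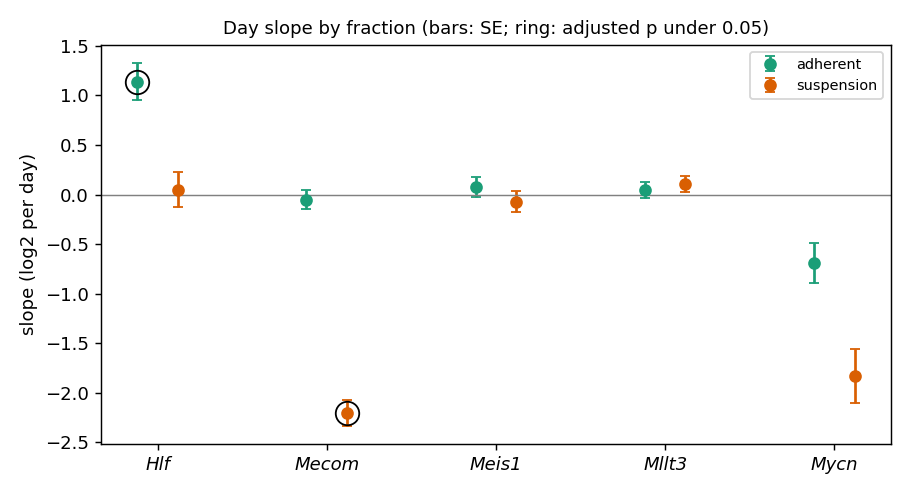
Slope in log2 per day of each gene in adherent and suspension libraries, with bars of 1 SE and a ring where edgeR's adjusted p was under 0.05. The ringed slopes are that of Hlf in adherent cells (1.14) and that of Mecom in suspension (-2.2), and both slopes of Meis1 and Mllt3 lie near 0.

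Over the 6 libraries the nearest pair among the 5, by the distance between centred log2(CPM + 0.5) profiles, was Hlf and Mllt3 (1.5) and the farthest was Hlf and Mecom (3.61). Among other genes with at least 5 CPM on average, the profiles most like Hlf were those of the zinc finger gene Plag1 (distance 0.29), the Krüppel-like factor gene Klf9 (0.35) and the phospholipase gene Plcb1 (0.49). Klf9 was at 48.2, 109 and 168 CPM in adherent cells on days 4, 5 and 6, against 45.1, 44.7 and 45.6 CPM in suspension. Most like Mecom were Lama5, a laminin chain (0.53), Slco2a1, a prostaglandin transporter (0.63), and Arhgef5 (0.67). Lama5 was at 5.04, 0.667 and 0.218 CPM in suspension and at 16.6, 14.2 and 10.4 CPM in adherent cells. Nearest to Meis1 were Hdgfl3 (0.15), Tgfb3 (0.24) and Tnks1bp1 (0.26), to Mllt3 the myosin gene Myo10 (0.14), Amer1 (0.2) and Map3k6 (0.24), and to Mycn Spsb1 (0.48), Shisa4 (0.52) and Ldlrad4 (0.56). The order rests on 6 points: with 2 added to CPM 5 of these 15 genes stayed among the nearest 3, and by Pearson correlation 3 of 15.

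Paralogs and protein partners of the 5 were split between the fractions. Of 33 genes, all tested, 7 were higher and 12 lower in suspension, and 14 did not pass in edgeR's test. Over all genes 27.1% were higher and 29.7% lower. The list's median log2 ratio was -0.12, beside -0.002 over all genes. In adherent cells 4 of the 33, Nfil3, Pbx3 and Mxi1 among them, rose with the days and 0 fell, against 7.75% and 3.52% of all genes.

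**Figure D3:**
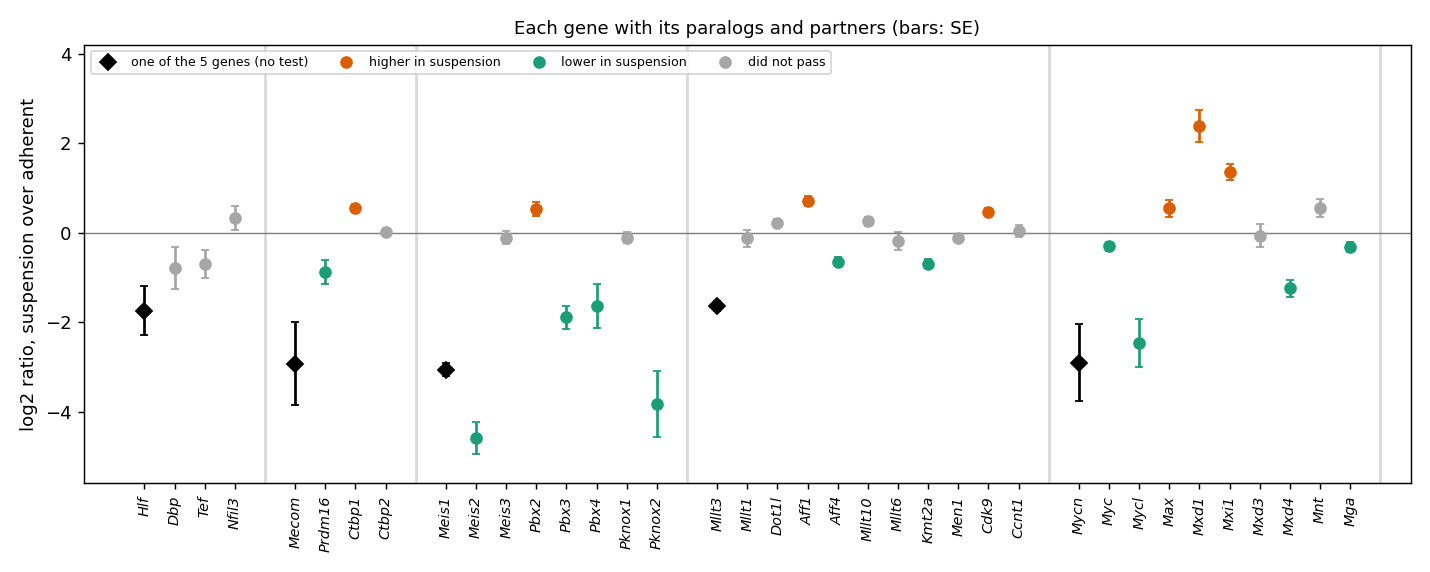
Log2 ratio of suspension over adherent cells with bars of 1 SE for each of the 5 genes (diamonds, not tested) and the paralogs and partners reported by name, coloured by edgeR's call. The Meis1 group reaches down to Meis2 at -4.58, and in the Mycn group Mxd1 stands at 2.38.

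The Meis1 group held genes called in either direction, where 29.7% of all genes were lower in suspension and 27.1% higher. The Meis1 paralog Meis2 was at 31.9, 55.3 and 52.7 CPM in adherent cells and 2.23, 2.43 and 1.21 CPM in suspension, a log2 ratio of -4.58 ± 0.36 (adjusted p = 0.000453, edgeR). Meis3 did not pass, at -0.11. The DNA-binding partner Pbx3 was at 21.4, 27 and 41.6 CPM in adherent and 7.82, 8.96 and 7.52 CPM in suspension cells (-1.89 ± 0.26). Pknox2, a related TALE gene, was lower at -3.82, while Pbx2 was higher at 0.53 and Pknox1, at -0.11, did not pass. Pbx4 was lower at -1.63. Pbx3 also rose in adherent cells, by 0.48 log2 per day (adjusted p = 0.0355, edgeR), a call kept only without the adherent library of day 5. Of the fraction calls, 2 were lost without single libraries: Pbx2 without suspension day 5 or 6, and Pbx4 without adherent day 4 or 5 or suspension day 5 or 6.

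In the Hlf group none of the related bZIP genes passed between the fractions, where 29.7% of all genes were lower in suspension and 27.1% higher. Dbp, a PAR bZIP activator, was at 5.58, 17.4 and 17 CPM in adherent cells and 5.45, 7.08 and 10.6 CPM in suspension, and Tef, the third activator, at 6.18, 11.2 and 13.8 against 5.16, 7.91 and 6.12 CPM. Like Hlf, both began near the same level in the fractions on day 4 and had higher values in adherent cells on days 5 and 6. Their adherent slopes of 0.79 and 0.58 log2 per day did not pass (adjusted p = 0.112 and 0.096, edgeR). Nfil3, the repressor that shares their binding site, rose in adherent cells from 13.6 to 20.9 and 28.9 CPM (0.54 log2 per day, adjusted p = 0.0169, edgeR).

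Because PAR bZIP genes are known targets of the circadian clock, 13 clock genes were listed. Between the fractions 3 were higher in suspension (Cry1, Bhlhe40 and Bhlhe41) and 1, Cry2, was lower. Over all genes 27.1% were higher and 29.7% lower, so neither count exceeded the general share. Bhlhe41 was at 2.74 ± 0.26 and Bhlhe40 at 1.1 ± 0.13 log2. Cry2 was at -0.83 with an adjusted p of 0.0456, but 0.0867 with the block on collection day (edgeR), and its call was lost without any 1 library except the adherent one of day 4. In adherent cells 3 clock genes rose, the period genes Per1 (8.31, 13.8 and 16.4 CPM) and Per3 (4.18, 7.38 and 9.76 CPM) and Bhlhe41 (6.14, 7.4 and 11.7 CPM), and 0 fell, where 7.75% of all genes rose and 3.52% fell. Their adherent slopes were 0.49, 0.61 and 0.47 log2 per day (adjusted p = 0.0476, 0.0429 and 0.0394, edgeR). In suspension 0 of the 13 rose or fell by edgeR, where 0.0939% and 0.402% of all genes did.

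The slopes of Nfil3, Per1, Per3 and Bhlhe41 kept their call only without the adherent library of day 5, as that of Hlf did. The hour at which each library was taken is not stated in the labels, so clock phase and day of culture cannot be told apart.

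For Mecom, the paralog Prdm16 was at 4.52, 5.69 and 4.78 CPM in adherent cells and 3.54, 2.67 and 1.94 CPM in suspension (-0.88 ± 0.27, adjusted p = 0.0303, edgeR). That call was lost without the library of day 5 or day 6 in either fraction. Its suspension slope, -0.43 log2 per day, did not pass (adjusted p = 0.274, edgeR). Of the corepressors Mecom binds, Ctbp1 was higher in suspension at 0.55 and Ctbp2 did not pass at 0.01.

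Of 10 Mllt3 partners 2 were lower and 2 higher in suspension, against 29.7% and 27.1% of all genes. Kmt2a, the methyltransferase whose fusions with Mllt3 drive leukaemia, and the elongation scaffold Aff4 were lower in suspension at -0.69 and -0.65 log2. Aff1, another scaffold, and the kinase Cdk9 were higher at 0.71 and 0.47. The other 6, Mllt1 (the close paralog), Dot1l, Mllt10, Mllt6, Men1 and Ccnt1, did not pass, with ratios from -0.19 to 0.25. None of the 10 had a ratio as far from 0 as that of Mllt3 itself (-1.63).

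In the Mycn group the paralogs went different ways in size. Myc was at 25.5, 24.4 and 28.7 CPM in adherent and 21.8, 20.5 and 21.6 CPM in suspension cells, a ratio of -0.3 with an adjusted p of 0.0448, and 0.058 with the collection day as a block. Its call was lost without any 1 of the 6 libraries (adjusted p from 0.058 to 0.106, edgeR). Unlike those of Mycn, its values did not run downward with the days. Mycl was lower at -2.47, at levels under 1.5 CPM. Among the Max partners that oppose Myc proteins, Mxd1 and Mxi1 were higher in suspension at 2.38 ± 0.35 and 1.36 ± 0.18, Mxd4 was lower at -1.24 ± 0.19, and Mxd3 and Mnt did not pass. Mxd1 was at 35.3, 44.1 and 86.6 CPM in suspension and 10, 11.1 and 10.8 CPM in adherent cells. Mxi1 rose in adherent cells by 0.31 log2 per day (adjusted p = 0.0456, edgeR), a call kept only without the adherent library of day 5. Max was higher at 0.54, a call lost without adherent day 4 or 5 or suspension day 5 or 6. Mga was lower at -0.33, a call lost without the library of day 5 or 6 in either fraction, and it did not pass with the collection day as a block (adjusted p = 0.062, edgeR).

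Hlf, Mycn and Meis1 belong to a set of 8 factors known for reprogramming committed mouse blood cells into stem cells. Of the other 5, 4 were lower in suspension, Runx1t1 and Zfp37 among them, and 1, Lmo2, was higher, against 29.7% and 27.1% of all genes. Runx1t1 was at 8.65, 10.7 and 19.2 CPM in adherent cells and at 0.509, 0.214 and 0 CPM in suspension. Zfp37 was at 5.38, 4.89 and 5.22 CPM in adherent and 0.533, 0.453 and 0.218 CPM in suspension cells (-3.69 ± 0.36, adjusted p = 0.000672, edgeR). Lmo2, a bridging protein of blood and endothelial cells, was at 0.91 ± 0.28 (adjusted p = 0.0315, edgeR), a call lost without any 1 suspension library or the adherent one of day 5. Hlf, Mecom and Mllt3 also belong to a 6-gene signature known from human blood stem cells with Runx1, Hoxa9 and Spink2. Runx1, needed for blood cells to form from endothelium, was higher in suspension at 0.5 ± 0.11 and Hoxa9 at 3.18 ± 0.87 (adjusted p = 0.00739 and 0.0205, edgeR). That made 2 of the 3 other signature genes higher, where 27.1% of all genes were. Runx1 did not pass without suspension day 4 or 5, and Hoxa9 not without the library of day 5 in either fraction. Spink2 was at 1.53, 0.667 and 0.0594 CPM in suspension and 3.07, 3.53 and 0.396 CPM in adherent cells and did not pass. With the collection day as a block, however, 1 of these 3 genes was called lower, as were 4343 of all 14912 genes.

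Other stem cell regulators went both ways. Of 29 listed, 27 were tested (all but Lhx2 and Nkx2-3), and 11 were higher and 9 lower in suspension, where 27.1% and 29.7% of all genes were, with a median log2 ratio of 0.15. Egr1, an immediate early factor that keeps stem cells quiet, was at 181, 430 and 569 CPM in adherent and 33.4, 35.6 and 28 CPM in suspension cells (-3.6 ± 0.43, adjusted p = 0.00111, edgeR). Hmga2, a chromatin protein of fetal progenitors, was at 517, 406 and 124 CPM in adherent and 37.7, 24.4 and 5.96 CPM in suspension cells (-3.94 ± 0.83), with lower values on each later day in both. Its slopes, -1.03 and -1.31 log2 per day, did not pass (adjusted p = 0.0727 and 0.131, edgeR). Rising in adherent cells were 4 of the 27, Lyl1, Egr1, Foxo3 and Myb, and 0 fell, against 7.75% and 3.52% of all genes, and in suspension 0 of the 27 passed in either direction by edgeR. Foxo3 and Myb kept that call only without adherent day 5. Lyl1 lost it without adherent day 4 or 6 or suspension day 5 or 6, and Egr1 without adherent day 4 or any 1 suspension library.

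Surface proteins and other genes known from stem cells were lower in suspension in 12 of 21 tested cases and higher in 4, against 29.7% and 27.1% of all genes, with a median of -2.24. Cd34, shared with endothelium, was at 61.1, 127 and 57.7 CPM in adherent and 12.5, 8.01 and 3.11 CPM in suspension cells (-3.38 ± 0.58), and the endothelial adhesion gene Esam was at -8.12 ± 0.7. Higher were Vwf (2.97 ± 0.35), the blood clotting factor of endothelium and platelets, and Cd27 (1 ± 0.28, adjusted p = 0.0214 by edgeR, but 0.057 with the day as a block), with Slamf1 and Flt3 at levels under 1 CPM. Cd27 lost its call without suspension day 4 or 5 or adherent day 5. In adherent cells Sult1a1 rose, from 2.24 to 8.16 and 14.7 CPM, and Adgrg1 fell, from 9.6 to 4.96 and 2.33 CPM (adjusted p = 0.0207 and 0.0211, edgeR), where 7.75% of all genes rose and 3.52% fell. Sult1a1 kept that call only without adherent day 5, and Adgrg1 lost it without adherent day 4 or 6 or suspension day 5. Cry1, Spink2, Slamf1, Flt3 and the genes outside the 5 and their partners that are named for a day slope were picked after their values were seen.

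Like the 5 genes, most markers of endothelium, mesenchyme, pericytes and smooth muscle were lower in suspension, though their courses over the days differed. Cdh5, the gene of the sorted VE-cadherin, was at 141, 226 and 79 CPM in adherent cells on days 4, 5 and 6, against 0.17, 0.381 and 0.119 CPM in suspension. All 15 endothelial, all 15 mesenchymal and 8 of 9 pericyte and smooth muscle markers were lower in suspension by edgeR, against 29.7% of all genes. Summed endothelial markers were at 1020, 1940 and 769 CPM in adherent and 27.5, 20.9 and 16.8 CPM in suspension cells. Over all 6 libraries Cldn5 and Egfl7 were highest on average, but in suspension Cldn5 was at 0.0969, 0.0477 and 0 CPM. Summed mesenchymal markers, with Col1a2 and Col1a1 highest, were at 1900, 2790 and 2790 CPM and at 87.8, 82.3 and 22.1 CPM. Neither list had a gene at 0 over a whole fraction.

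Summed epithelial markers were at 1640, 430 and 1050 CPM in adherent cells and at 311, 81.4 and 46.8 CPM in suspension, where those of pericytes and smooth muscle were at 125, 22.6 and 9.62 CPM. These sums were lower on each later day in suspension, as Mecom and Mycn were. By edgeR 3 of 12 epithelial markers, the keratins Krt8, Krt18 and Krt19, fell in suspension, with slopes of -2.5, -2.29 and -1.94 log2 per day (adjusted p = 0.0204, 0.0188 and 0.0369), and 1 of 9 pericyte and smooth muscle markers, Des, fell with a slope of -1.83 (adjusted p = 0.0385), where 0.402% of all genes fell. Like the slope of Mecom, these lost their call without suspension day 4 or 6, and those of Krt19 and Des also without day 5. In adherent cells, where the slope of Mecom was -0.05, 4 of the 12 epithelial markers fell by edgeR, against 3.52% of all genes. Krt8, Krt18, Krt19 and Cdh1 had adherent slopes of -1.24, -1.51, -0.81 and -1.11 log2 per day (adjusted p = 0.0098, 0.00898, 0.0239 and 0.0245, edgeR). Of these 4 calls only that of Krt18 was kept without each 1 of the 6 libraries. Per 1000 CPM of the endothelial list, Mecom in suspension came to 220, 58.1 and 17.7 CPM, day by day. In adherent cells that ratio was 18.7, 10.4 and 23.3. Per 1000 CPM of the mesenchymal list it was at 69, 14.8 and 13.4 CPM in suspension. Hlf per 1000 CPM of mesenchymal markers was at 1.17, 2.43 and 3.95 CPM in adherent cells, and per 1000 CPM of endothelial markers at 2.17, 3.5 and 14.3 CPM. Beside the rise of Hlf, 3 of 15 mesenchymal markers rose in adherent cells by edgeR, against 7.75% of all genes. Dcn, a matrix proteoglycan, was at 22, 60.5 and 103 CPM (1.11 log2 per day, adjusted p = 0.012, edgeR), the fibroblast factor Tcf21 at 3.62, 7.73 and 45.3 CPM (adjusted p = 0.0117) and Mfap4 at 12.4, 26.4 and 155 CPM (adjusted p = 0.0195). Dcn lost its call without adherent day 4, and Tcf21 and Mfap4 theirs without adherent day 6. Of 9 pericyte and smooth muscle markers 1, Rgs5, also rose, from 0.6 to 1.66 and 12.2 CPM (adjusted p = 0.035, edgeR), a call lost without adherent day 4 or 6. Another 1, Cnn1, fell in adherent cells, from 39.4 to 3.58 and 3.56 CPM (adjusted p = 0.0462, edgeR), where 3.52% of all genes fell. That call was lost without adherent day 4 or any 1 suspension library. The adherent sum of this list was at 3170, 696 and 911 CPM, so the list as a whole did not rise. These markers were named after their values were seen. The part of these cell types in the results for the 5 genes was not tested.

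Among blood cell markers, 10 of 12 of macrophages and 10 of 10 of neutrophils were higher in suspension, against 27.1% of all genes. Summed neutrophil markers were at 231, 805 and 1040 CPM in adherent cells and at 26500, 34000 and 78500 CPM in suspension. Summed macrophage markers in adherent cells were at 3020, 3820 and 7690 CPM on days 4, 5 and 6. By edgeR 8 of the 12 rose there, in the libraries in which Hlf rose, against 7.75% of all genes. Of these 8 calls only that of Marco was kept without each 1 of the 6 libraries. Summed mast cell markers in adherent cells were at 32, 116 and 182 CPM, higher on each later day as Hlf was. Nearly all of the sum on day 4 was Mcpt8, which had another course, at 31.6, 59.1 and 3.4 CPM, with no slope called (adjusted p = 0.382, edgeR). Tpsb2, at 0, 18.8 and 72.3 CPM, was the 1 of 8 that rose by edgeR (adjusted p = 0.0458), a call lost without any 1 suspension library, and Cpa3 was at 0, 28.2 and 93 CPM. Of 8 megakaryocyte markers 2, Gp6 among them, were at 0 in the adherent libraries, and the sum, nearly all of it Pf4, was at 792, 740 and 1360 CPM there. Summed markers of dividing cells were at 795, 557 and 464 CPM in adherent cells, beside the lower values of Mycn. There 6 of 8 fell by edgeR, against 3.52% of all genes. All 6 calls were lost without adherent day 4 or adherent day 6. In suspension the sum was at 1150, 1100 and 1110 CPM. The remaining lists were small or near 0 in 1 fraction. Erythroid and lymphoid sums were 2.21 to 5.04 and 2.72 to 7.4 CPM in adherent cells. Of the erythroid, lymphoid and mast cell lists 8 of 8, 3 of 3 and 2 of 8 tested markers were higher in suspension. Over all genes 27.1% were higher, so the mast cell count was near the general share. Mesothelial and neural crest sums stayed within 0.218 to 3.68 and 2.3 to 5.48 CPM in suspension, where Wt1, Lrrn4 and Chga were at 0. There 2 of 2 and 1 of 3 tested markers were lower, against 29.7% of all genes. Whether these cells contribute to the counts of the 5 genes was not tested.

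**Figure D4:**
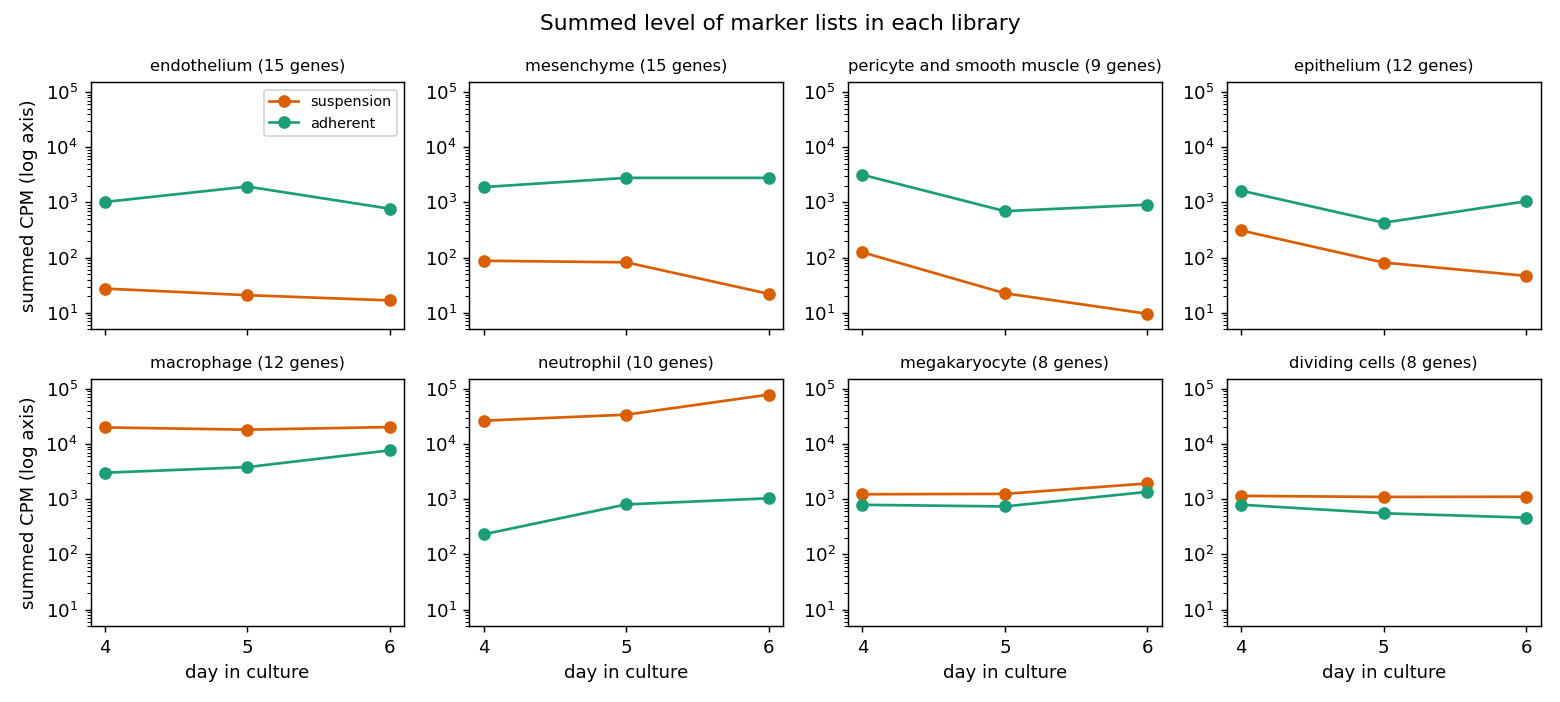
Summed CPM (log axis) of 8 marker lists against the day in culture, each point 1 library. Endothelial and mesenchymal sums stand far higher in adherent libraries, and in suspension those of pericytes and smooth muscle go from 125 to 9.62 CPM.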

How the data were processed

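Messenger RNA was counted in 6 droplet libraries of cultured fetal mouse lung cells. The build mm10 and the tools STARsolo, Cell Ranger and bcl2fastq are named, per the submitters' processing notes. Their versions, and the annotation, are not stated there. The deposited files hold raw read counts per gene for whole libraries (either strand, sense and antisense), without a cell axis or molecular identifiers, below 4 summary lines that were left out. Sense counts were used. Symbols came from GENCODE M21 (30934 of 31053 identifiers matched, and where 28 symbols were shared the identifier with the most counts kept it).

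Genes were filtered with filterByExpr (14912 of 22019 with any count kept) and scaled by TMM in edgeR 4.0.16 (R 4.3.3). Quasi-likelihood tests compared the fractions (4 residual degrees of freedom), a common day slope (3), and the slope of each fraction and their difference (2), with Benjamini-Hochberg adjustment over all genes at 0.05. Standard errors are the log2 value over the square root of F. The 3 days stood in as the libraries of a fraction. The labels give each collection day to 1 library of either fraction. Same-day libraries had deviations that correlated at 0.318, 0.095 and 0.253 over genes (other pairs -0.285 to 0.022), so blocking on day was an alternative. Others were reads on either strand, DESeq2 1.42.0 and its scaling, other filters, thinned counts, a test against a 2-fold difference and leaving out each library.

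The 5 genes and 19 lists (6 of related genes, 13 of cell type markers) were chosen with earlier results of these data known. Genes named were the 5, tested paralogs and partners, the 2 called genes with the most counts per direction in other lists, the 2 highest markers, and the 3 nearest profiles. Some listed genes count in their lists but are not reported by name here. The tests were tried on simulated data.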

Additional observations from a re-analysis of the deposited data

Results flagged for a closer look

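The day slopes of Mecom differed between the fractions, by -2.15 log2 per day (suspension minus adherent), in a test of the difference itself (adjusted p = 0.0485, edgeR). Levels went from 6.05 to 0.297 CPM in suspension and from 19.1 to 17.9 CPM in adherent cells.

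Reads on the antisense strand, which the comparisons above did not use, were present at all 5 genes, above the 3 reads that a count of 0 allows. Over the 6 libraries there were 117 for Hlf, 199 for Mecom, 1841 for Meis1, 323 for Mllt3 and 84 for Mycn. Over all genes antisense reads made up between 6.24% and 7.3% of sense and antisense reads in a library. For Meis1 the share was 13.4%, 17.2% and 19.5% in adherent cells on days 4, 5 and 6 and 16.3%, 16.6% and 20.9% in suspension. The antisense genes Gm16140 and Gm16141 lie inside Meis1, with 381 and 305 reads in the 6 libraries. Some of these may be the same reads as those antisense to Meis1, which was not tested. On adherent day 4 Meis1 had 2629 sense and 408 antisense reads, but 2706 on either strand. Mecomos, antisense to Mecom, had 56 reads. The highest share of Mycn, 45.8% in suspension on day 5, rests on 11 antisense and 13 sense reads. No antisense gene overlaps Hlf or Mycn in GENCODE M21.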

How the results depend on the processing

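The log2 ratios of the 5 genes between fractions kept their sign under every alternative run. With at least 10 CPM in 3 libraries Mllt3 was at -1.79, farther from -1.63 than the SD of its day-matched gaps. Mycn was at -3.3, within the range of its day-matched gaps (-2.25 to -4.61), with the collection day as a replicate block, which is the pairing of the fractions by day. With that block Mecom was at -3.66 (-2.93 without it) and Hlf at -1.5 (-1.74), while Meis1 stayed at -3.06 and Mllt3 was at -1.64. Besides Cry2, Myc, Mga, Cd27 and the signature list, which are named with their results, the block moved no list count by over 1.5 times (with thinned counts, stem cell surface genes higher went from 4 to 2). Leaving out 1 library gave -4.71 to -2.41 for Mecom, -4.28 to -2.43 for Mycn and -1.74 to -1.6 for Mllt3. Hlf and Mycn were not kept by the filter of at least 10 CPM.

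Numbers of genes called depended on the processing, and the cause was not tested except that fewer genes or libraries were fitted where these were left out. Between fractions 8467 were called, 5018 with at least 10 CPM in 3 libraries and 3759 against a 2-fold difference. By DESeq2 1478 genes were called in the common trend (2 by edgeR), 802 in the suspension slope (74) and 1033 in the slope difference (77). With no filter the numbers were 66, 809 and 1006, and 2646 in the adherent slope (1681). The common trend and the slope difference had 0 without globin and mitochondrial genes, and the common trend 0 with the day as a factor (by edgeR 3036 and 2930 had an unadjusted p under 0.05 at first). Leaving out 1 library gave 0 to 13 (common), 288 to 2902 (adherent), 0 to 544 (suspension) and 0 to 859 (difference).

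Of the slopes, those of Hlf in adherent cells and Mecom in suspension kept their call under every alternative run that kept the gene and all libraries. Mycn passed by DESeq2 (common -1.19, suspension -1.86) and with no filter (suspension -1.83), and the slope difference of Hlf passed with no filter (-1.08). That of Mecom missed the threshold at -2.13 without globin and mitochondrial genes. Without 1 library, Hlf lay between 0.7 and 1.61 (adherent) and -1.56 and -0.65 (difference), Mecom between -2.31 and -2.06 (suspension), -2.28 and -1.98 (difference) and -0.17 and 0.07 (adherent), and Mycn between -1.97 and -1.77 (suspension). Slopes near 0 that never passed changed sign: Meis1 in common was at -0.01 with at least 10 CPM and -0.02 without globin and mitochondrial genes. Without 1 library Meis1 lay between -0.05 and 0.08 (common), -0.46 and 0.28 (suspension) and -0.5 and 0.25 (difference), and Mllt3 between -0.08 and 0.25 (suspension) and -0.09 and 0.24 (difference).

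Against a 2-fold difference 1 paralog or partner was higher (7 in the test against no difference) and 5 lower (12), and 5 other stem cell factors were higher (11). With at least 10 CPM in 3 libraries 6 other stem cell factors were higher, and 1 stem cell surface gene was higher and 6 lower (12). Of the clock genes lower in suspension (1) there were 2 with reads on either strand, 3 by DESeq2 and 0 with no filter, with at least 10 CPM, with thinned counts, with the block and against a 2-fold difference, and 0 to 3 without 1 library; 1 was higher (3) against a 2-fold difference. The other reprogramming factors gave 0 higher and 2 lower (1 and 4) with at least 10 CPM and 0 higher against a 2-fold difference, and the other signature genes 1 and 0 higher (2). Without 1 library these were 0 to 1 and 0 to 2. Depth limits Mycn in suspension most, with 4 reads on day 6.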
